A study of Sus scrofa with 21 samples.

Results

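The genes described here are the flap endonuclease FEN1 and 9 further genes of the DNA replication fork: PCNA, LIG1, RFC1 and MCM2 to MCM7. They were taken as the rows of the gene count tables whose Ensembl pig identifier carries one of these symbols. FEN1 was chosen by its counts, since its difference between low and high hyperactivity boars at day 0 in Landrace ranked 6 by p-value among 12979 tested genes, and the others were added as its partners at the fork. Of the 10 genes, 9 were matched to a row among the 25880 genes of the tables. PCNA was matched to no row and is not analysed here.

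During replication, the MCM2 to MCM7 proteins form a ring that unwinds the DNA double helix ahead of the polymerases. RFC1 is the large subunit of the complex that loads the sliding clamp PCNA onto DNA, and PCNA holds polymerases, FEN1 and ligase on the template. On the lagging strand, FEN1 cuts the flap at the start of each Okazaki fragment and DNA ligase LIG1 seals the remaining nick. In the testis, replication takes place in dividing spermatogonia and in the last S phase before meiosis, whereas spermatids no longer copy their DNA.

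Testis RNA from 21 artificial insemination boars, 13 Norwegian Landrace and 8 Duroc, was sequenced with 1 library per boar, and the tissue was frozen after slaughter. Boars had been selected for extreme values of sperm hyperactive motility, the vigorous beating that sperm need near the time of fertilisation, measured on the ejaculates rather than on the tissue. Contrast (i) compared 4 Landrace boars with low (L1 to L4) and 4 with high (L5 to L8) hyperactivity on the day of ejaculation, day 0. Contrast (iii) compared 4 Landrace boars labelled low (L2, L9, L10 and L12) with 3 labelled high (L7, L13 and L15) for the change in hyperactivity over 96 h of semen storage, called the low and high change boars, so that L2 and L7 belong to both contrasts. Contrast (ii) compared 5 Duroc boars labelled high (D1 to D5) with 3 labelled low (D6, D7 and D9). Matched by name, the study's own table gives the opposite group for most of these Duroc boars, although the most deeply sequenced boars belong to the high group in both sources. The deposited labels were followed. The groups are high or low only within their breed, no boar received a treatment, and anything that went with breed cannot be told apart from breed.

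The libraries held 41358671 to 125576407 counts on genes. No pair among the 34 pairs of boars within a group looked like a duplicate, and log2 CPM correlated at 0.98 to 0.992 within these pairs. L13 stood farthest from its breed, with a mean correlation of 0.944, beside 0.956 to 0.976 in the other boars. These means are not compared with the pair values, where L13 was at 0.988 with L7 and 0.986 with L15. The defining markers of germ cells and of Leydig and Sertoli cells were detected, with TNP1, a transition protein of elongating spermatids, at a mean of 5691 CPM in Landrace and 5831 CPM in Duroc. The Sertoli marker AMH had 0 counts in all 21 libraries, and CSF1R, CD3E and CD3D of the macrophage and lymphocyte list had 0 counts in 1 boar each. CPM denotes counts scaled to library size after TMM normalisation over all 21 libraries, and log2 fold changes are high over low, or Duroc over Landrace. CPM does not account for gene length, so levels are compared between boars and not between genes.

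FEN1 lies on chromosome 2 from 9752004 to 9756863 (RefSeq gene span, Sscrofa11.1) and was a gene of low abundance, with 140 to 974 counts per library. In the low boars of contrast (i) it reached 9.01 CPM in L1, 9.20 in L2, 10.8 in L3 and 11.9 in L4. In the high boars it was at 3.38 CPM in L5, 3.02 in L6, 4.87 in L7 and 2.17 in L8. Every low boar lay above every high boar, which is the difference for which FEN1 was chosen. The means were 10.2 ± 1.37 CPM (SD, n = 4) and 3.36 ± 1.13 CPM (SD, n = 4), a log2 fold change of -1.67 (SE 0.26) or 3.18-fold less in the high boars. No p-value is attached, because this contrast selected the gene. The edgeR call ended when L3 or L6 was left out, with log2 fold changes of -1.67 and -1.62, and 1 gene of the whole table was then called.

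**Figure D1:**
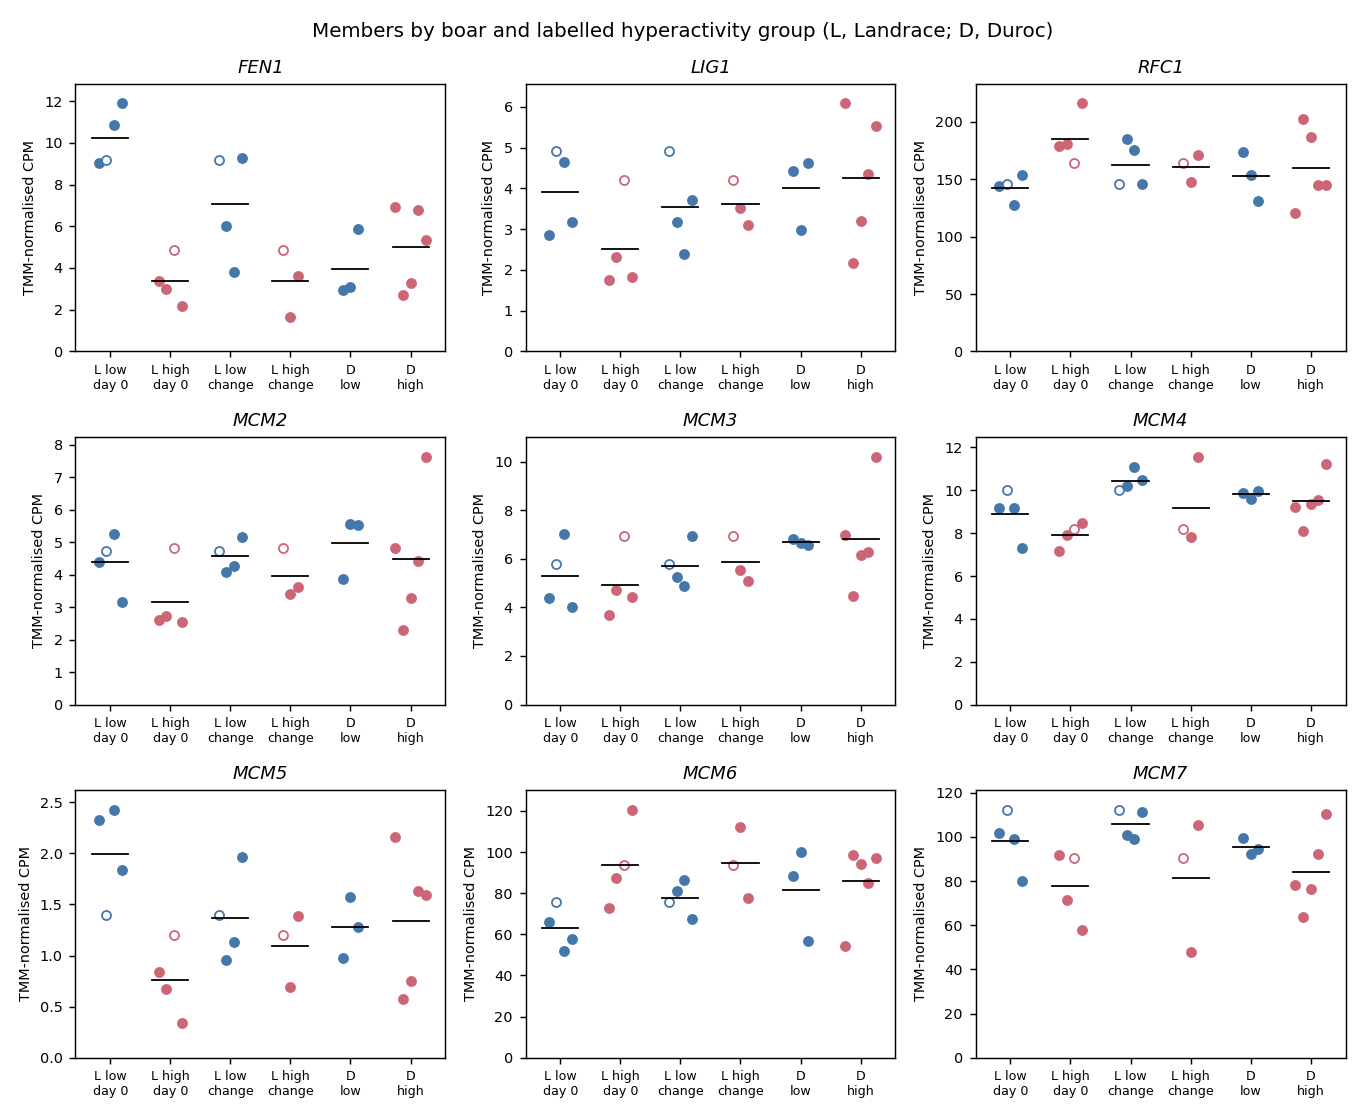
TMM-normalised CPM (y axis, linear from 0) of the 9 matched genes in each boar, by labelled group (x axis: L, Landrace; D, Duroc; change, contrast (iii)). Points are boars, bars are group means, and open points are L2 and L7, which appear in both Landrace contrasts. FEN1 and MCM5 separate the day 0 groups, with lower values in the high boars, as does RFC1 with higher values, whereas in Duroc all 9 genes overlap between labels.

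The other lagging strand enzyme, LIG1, was at 2.87 to 4.92 CPM in the low boars and at 1.75 to 4.20 CPM in the high boars of contrast (i). The groups overlapped because L7 lay at 4.20 CPM, above 3 high boars that did not exceed 2.30 CPM, and the log2 fold change was -0.69 (SE 0.34). RFC1, the clamp loader subunit, went the other way. It was at 128 to 154 CPM in the low boars and at 164 to 216 CPM in the high boars, without overlap, with a log2 fold change of 0.30 (SE 0.12).

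The 6 helicase genes did not move as a block in contrast (i). MCM5 was at 2.32 CPM in L1, 1.40 in L2, 2.42 in L3 and 1.84 in L4, against 0.842 in L5, 0.669 in L6, 1.20 in L7 and 0.338 in L8. Every low boar was above every high boar, and the log2 fold change was -1.45 (SE 0.39), on 27 to 218 counts per library. MCM2, MCM3, MCM4 and MCM7 had log2 fold changes of -0.53 (SE 0.29), -0.17 (SE 0.27), -0.24 (SE 0.18) and -0.40 (SE 0.18), each with overlapping groups. MCM6 was the helicase gene with the opposite sign. It was at 66.1 CPM in L1, 75.7 in L2, 51.9 in L3 and 57.8 in L4, against 72.6 in L5, 87.2 in L6, 93.6 in L7 and 121 in L8, and its log2 fold change was 0.50 (SE 0.17).

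Across the 9 genes, 7 had negative and 2 positive log2 fold changes in contrast (i), with a median of -0.40 beside 0.03 over all tested genes. The quasi-likelihood test called 2 of the 9, FEN1 and MCM5, both lower in the high boars, beside 20.7% of all tested genes called and 15.8% called lower. MCM6, higher in the high boars, was not called in that test (adjusted p = 0.0531 in edgeR). It was called in 6 of 9 alternative fits, among them the likelihood ratio test and DESeq2. With single boars left out, MCM6 was called in 1 of 8 fits, the one without L5. The groups did not overlap for 3 of the 9, FEN1, RFC1 and MCM5, beside 31.4% of all genes. Since contrast (i) chose FEN1, nothing is read from these counts. Without L1 the call of MCM5 also ended, and leaving out each boar in turn moved the number called between 0 and 4, the 4 being FEN1, LIG1, MCM2 and MCM5 without L7.

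**Figure D2:**
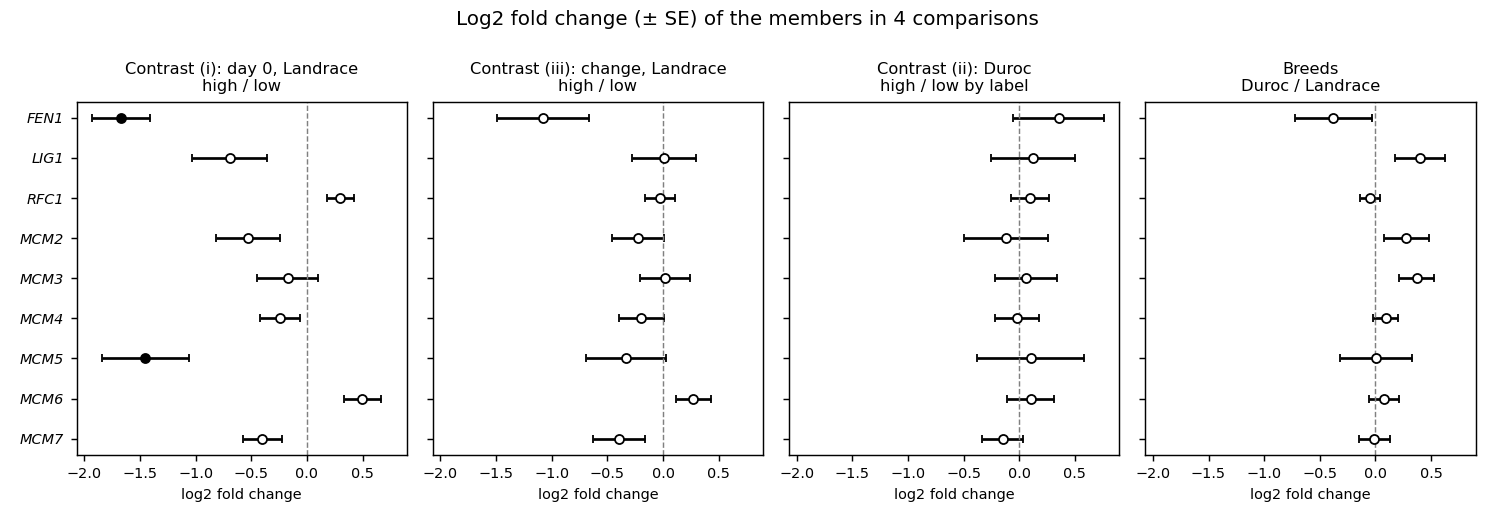
Log2 fold change (x axis) with its standard error (bars) for the 9 genes in contrast (i), contrast (iii), contrast (ii) and between breeds. Filled points passed an adjusted p of 0.05 in edgeR, which only FEN1 (-1.67) and MCM5 (-1.45) in contrast (i) did. Contrast (i) chose FEN1, so nothing is read from its filled point.

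The change in hyperactivity over storage asked whether the same genes separate boars whose sperm respond differently to storage. FEN1 was at 9.20 CPM in L2, 6.04 in L9, 3.81 in L10 and 9.29 in L12 of the low change group, and at 4.87 CPM in L7, 1.65 in L13 and 3.63 in L15 of the high change group. The groups overlapped, since L10 lay below L7. The log2 fold change was -1.08 (SE 0.41) and did not pass edgeR's quasi-likelihood test (adjusted p = 0.24, unadjusted p = 0.0253). A two-sided exact permutation test over the 35 assignments of the boars gave p = 0.114, and 3 boars against 4 cannot go below 0.0286. Without L2 and L7, the boars shared with contrast (i), every low change boar lay above every high change boar, but L10 exceeded L15 by little, and the log2 fold change was -1.30 (adjusted p = 0.309 in edgeR). L13, the library farthest from its breed, was the boar with the least FEN1 of all 21. With single boars left out, the log2 fold change of FEN1 ran from -1.44 to -0.75.

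None of the 9 genes was called in contrast (iii), beside 0% of all tested genes. FEN1 was the only gene of the 9 with an unadjusted p below 0.05, which 19.8% of all tested genes reached. None of the 9 had groups without overlap, which 16.4% of all genes had. MCM7 was at 99.0 to 112 CPM in the low and 48.0 to 106 CPM in the high change boars, with a log2 fold change of -0.39 (SE 0.23) and an exact permutation p of 0.0857. MCM6 was at 67.3 to 86.3 CPM in the low and 77.6 to 112 CPM in the high change boars, with a log2 fold change of 0.27 (SE 0.16). Those of LIG1, RFC1 and MCM3 were 0.01 (SE 0.29), -0.03 (SE 0.13) and 0.02 (SE 0.23). MCM2, MCM4 and MCM5 had values of -0.22 (SE 0.23), -0.20 (SE 0.20) and -0.34 (SE 0.36).

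The Duroc boars played no role in the choice of the genes. By the deposited labels, FEN1 was at 6.90 CPM in D1, 2.70 in D2, 3.29 in D3, 6.78 in D4 and 5.35 in D5 of the high group, and at 2.94 CPM in D6, 3.11 in D7 and 5.85 in D9 of the low group. High and low boars were interleaved. The log2 fold change was 0.35 (SE 0.41, 95% interval from -0.55 to 1.25), where edgeR gave an adjusted p of 1 and the boars an exact permutation p of 0.464. The sign of the Duroc log2 fold change rests on the deposited labels, and the groups of the study's table were not tested. Whether the effect differs between the breeds was not tested, because contrast (i) selected FEN1.

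The other 8 genes were interleaved as well in contrast (ii). Their log2 fold changes ran from -0.15 (SE 0.19) for MCM7 to 0.13 (SE 0.38) for LIG1, and the smallest exact permutation p of the 9 genes was 0.304, for MCM7, where 5 boars against 3 cannot go below 0.0179. edgeR called 0 of the 9, none at an unadjusted p below 0.05, beside 0% of all tested genes, and none had groups without overlap, beside 1.3%. The intervals were wide for the genes with few counts. MCM5 was at 0.571 to 2.16 CPM in the high and 0.979 to 1.57 CPM in the low boars, and its 95% interval ran from -0.95 to 1.16 on the log2 scale. RFC1 was at 121 to 203 CPM and 131 to 173 CPM, with an interval from -0.28 to 0.48.

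Between breeds, FEN1 ranged from 1.65 CPM in L13 to 11.9 CPM in L4 in Landrace, with a median of 4.87 CPM, and from 2.70 CPM in D2 to 6.90 CPM in D1 in Duroc, with a median of 4.32 CPM. The Duroc range lay inside the Landrace range. The log2 fold change was -0.38 (SE 0.35, adjusted p = 0.89 in edgeR), and without the 8 Landrace boars of contrast (i) it was -0.04. Ordered by group mean, FEN1 fell from the low day 0 boars (10.2 CPM) through the low change boars (7.08 ± 2.65, SD, n = 4), the Duroc high boars (5.01 ± 1.94, n = 5), the Duroc low boars (3.97 ± 1.63, n = 3) and the high change boars (3.38 ± 1.62, n = 3) to the high day 0 boars (3.36 CPM). Each group in that order overlapped with its neighbours. The places of the Duroc groups rest on the deposited labels, which differ from the study's table for most of these boars.

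The smallest p-value between breeds was that of the helicase gene MCM3, at 4.48 to 10.2 CPM in Duroc, with a median of 6.60 CPM, and at 3.69 to 7.03 CPM in Landrace, with a median of 5.09 CPM. The ranges overlapped, and the log2 fold change was 0.37 (SE 0.16). edgeR gave an unadjusted p of 0.0259 and an adjusted p of 0.295, and boars permuted between breeds gave p = 0.0197 in a permutation test of 100000 resamples, the smallest of the 9 genes tested. Without D5, the Duroc boar with 10.2 CPM, the log2 fold change was 0.26 and the adjusted p in edgeR 0.637. LIG1 was at 4.17 ± 1.32 CPM in Duroc (SD, n = 8) and 3.20 ± 0.997 CPM in Landrace (SD, n = 13), a log2 fold change of 0.40 (SE 0.22, adjusted p = 0.531 in edgeR). The other values were 0.28 (SE 0.20) for MCM2, 0.09 (SE 0.11) for MCM4, 0.00 (SE 0.32) for MCM5, 0.08 (SE 0.13) for MCM6, -0.01 (SE 0.14) for MCM7 and -0.05 (SE 0.09) for RFC1. edgeR called none of the 9 between breeds, beside 2.77% of all tested genes, and 1 of the 9 had an unadjusted p below 0.05, beside 12.2%.

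How far the genes varied together was described across boars within each breed. In the 13 Landrace boars, which include those that chose FEN1, log2 CPM of FEN1 correlated with that of MCM5 at r = 0.86, MCM7 at 0.71, MCM2 at 0.63 and LIG1 at 0.56. FEN1 correlated negatively with MCM6, at -0.86, and with RFC1, at -0.62. MCM3 and MCM4 were at 0.26 and 0.20. All 8 coefficients had the same sign in the 8 Duroc boars, although the points share library depth and tissue makeup within each breed.

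**Figure D3:**
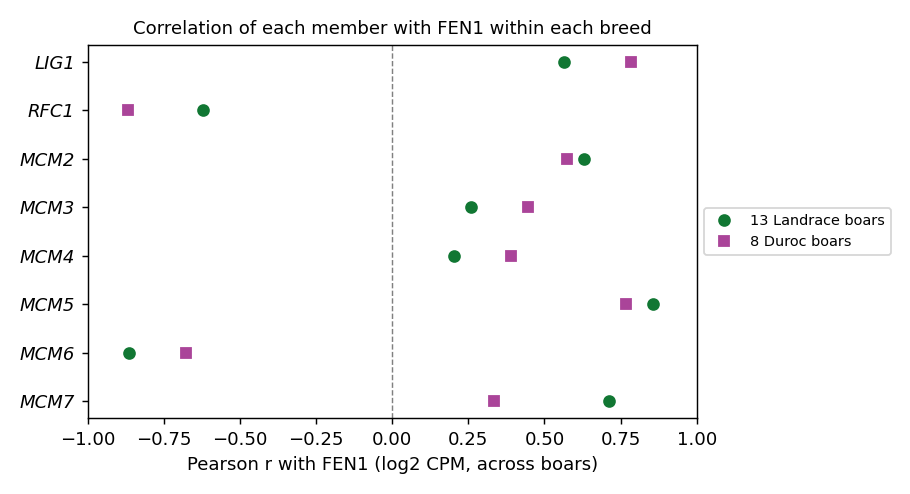
Pearson r of log2 CPM with FEN1 (x axis) for each of the 8 other genes (y axis) across 13 Landrace boars (circles) and 8 Duroc boars (squares). MCM6 (-0.86 and -0.68) and RFC1 (-0.62 and -0.87) lie on the negative side in both breeds, and the other 6 genes on the positive side.

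In Duroc, whose boars the choice did not use, the 8 correlations with FEN1 were tested by two-sided exact permutation over the 40320 pairings. RFC1 had r = -0.87 (exact permutation p = 0.00506, adjusted over the 8 relations p = 0.0405), and its rank correlation was -0.86 (exact permutation p = 0.0107, adjusted 0.0616). Without D1 and D4, the boars farthest from the FEN1 median, r of RFC1 was -0.86 over 6 boars. LIG1 had r = 0.78 (exact permutation p = 0.0276, adjusted 0.0877) and rho = 0.71 (exact permutation p = 0.0576, adjusted 0.115), and MCM5 had r = 0.77 (exact permutation p = 0.0329, adjusted 0.0877) and rho = 0.83 (exact permutation p = 0.0154, adjusted 0.0616). Neither passed the adjustment, and without D1 and D4 they were at 0.76 and 0.61. MCM6 had r = -0.68 (exact permutation p = 0.0542, adjusted 0.108) and rho = -0.76 (exact permutation p = 0.0368, adjusted 0.0981). MCM2, MCM3, MCM4 and MCM7 had r from 0.34 to 0.57 with adjusted exact permutation p from 0.222 to 0.421, and rho from 0.10 to 0.43. Strong correlations with FEN1 were common in these libraries. Among 13042 genes, 12.8% had an absolute r in Duroc at least that of RFC1, and the quartiles of r were -0.66 and 0.58.

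Among themselves, MCM2, MCM3, MCM4 and MCM7 went together in Duroc, with r from 0.84 to 0.94 for each pair. In Landrace the same pairs ran from 0.25 for MCM3 with MCM7 to 0.79 for MCM2 with MCM3. MCM6 was apart from its partners in the helicase ring, with r of -0.66 with MCM7 and -0.87 with MCM5 in Landrace. In Duroc, MCM6 correlated with MCM7 at 0.01 and with MCM5 at -0.47. Per boar, the ratio of MCM6 to MCM7 counts ran from 0.524 in L3 to 2.34 in L13, and in Duroc from 0.600 in D9 to 1.54 in D2. In contrast (i) the ratio was 0.524 to 0.722 in the low boars and 0.792 to 2.08 in the high boars, as a description. In contrast (iii) it was 0.604 to 0.872 in the low change and 0.735 to 2.34 in the high change boars, and the groups overlapped through L15.

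**Figure D4:**
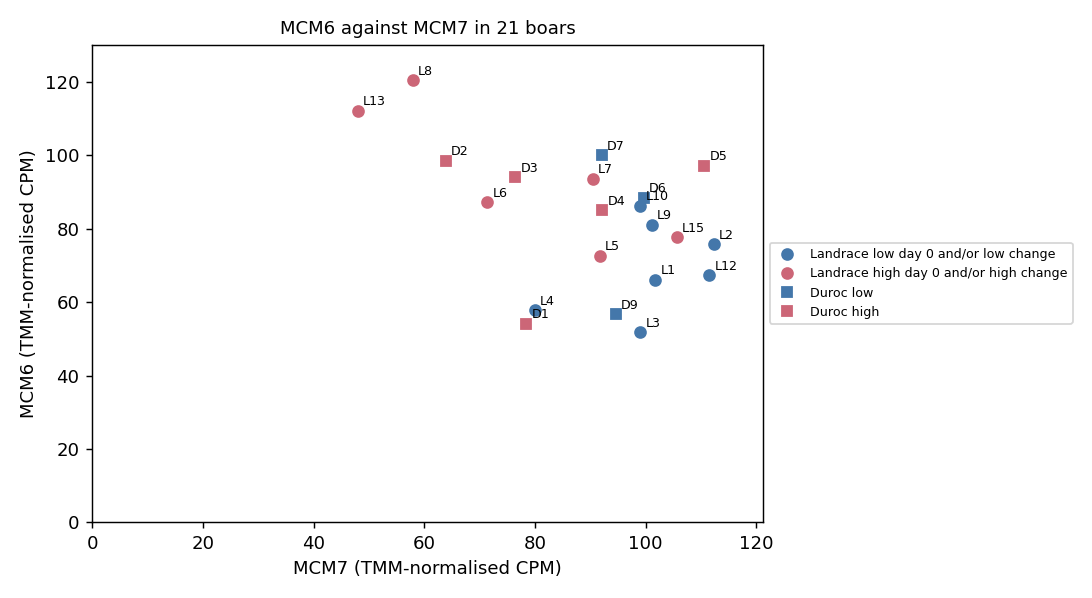
MCM6 (y axis) against MCM7 (x axis), both in TMM-normalised CPM, in each of the 21 boars, with circles for Landrace, squares for Duroc and colours for the label. L8 and L13 combine the highest MCM6 (121 and 112 CPM) with the lowest MCM7 (57.9 and 48.0 CPM).

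The genes whose log2 CPM followed FEN1 most closely over all 21 libraries, after subtraction of each breed's mean, were SPPL2C (r = 0.953), CCDC188 (0.951), GARIN5A (0.946), CACFD1 (0.944) and NTMT1 (0.944). None of these is a replication gene of the lists used here. Of the partners of FEN1, MCM5 came highest at 0.83, at rank 1030 among 12834 genes, and MCM6 lowest at -0.79, at rank 12025. Over all genes the median was -0.17 and the quartiles were -0.59 and 0.54.

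The lists of cell markers differed in how far, and in which direction, they varied with FEN1. In contrast (i), the summed CPM of 9 spermatocyte markers, led by the synaptonemal complex genes SYCP2 and SYCP3, did not overlap between groups. It was 1360 to 1787 in the low and 1898 to 2832 in the high boars. Groups without overlap were seen for 31.4% of all genes there. edgeR called 1 of the 9 markers, higher in the high boars. The spermatocyte sum overlapped in contrast (iii), at 1479 to 2025 in the low and 1753 to 1974 in the high change boars. It overlapped as well in Duroc, at 1471 to 2090 in the low and 1479 to 2634 in the high boars. FEN1 correlated with it at -0.63 in Landrace and -0.92 in Duroc, LIG1 at -0.76 and -0.92, and MCM5 at -0.80 and -0.82. RFC1 and MCM6 correlated with it positively, RFC1 at 0.90 and 0.93 and MCM6 at 0.72 and 0.73. The part of these markers in the differences was not tested. In bulk tissue, fewer cells of a type and less RNA per cell cannot be told apart.

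**Figure D5:**
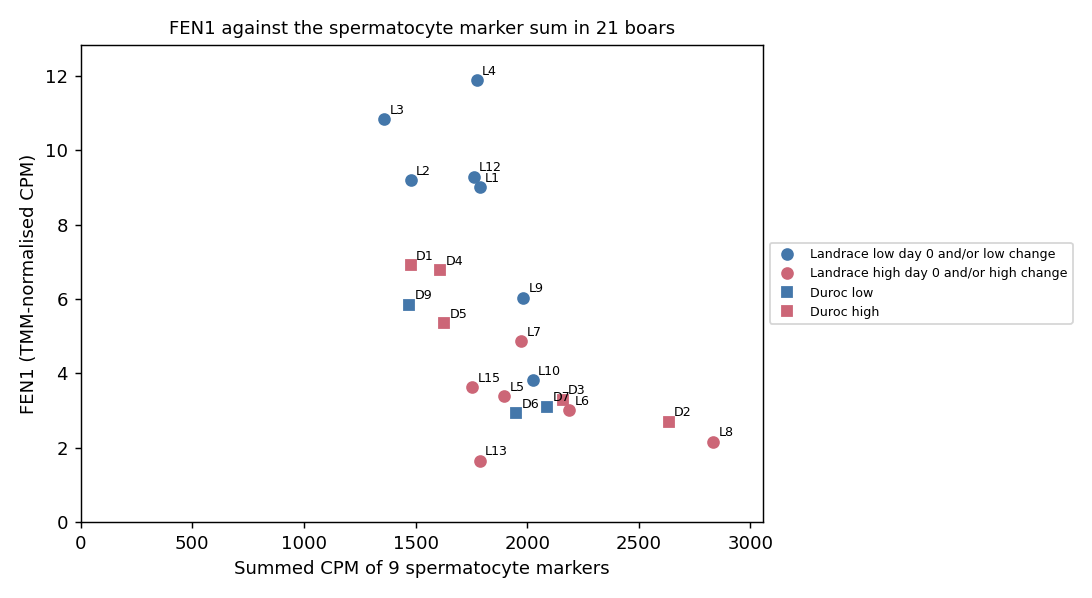
FEN1 (y axis, TMM-normalised CPM) against the summed CPM of 9 spermatocyte markers (x axis) in each of the 21 boars, with circles for Landrace, squares for Duroc and colours for the label. FEN1 is above 9 CPM in 5 Landrace boars with sums of 1360 to 1787, and L13 has 1.65 CPM at a sum of 1787.

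In contrast (i), edgeR called 3 of 8 round spermatid markers and 3 of 8 elongating spermatid markers, all lower in the high boars. Over all tested genes, 15.8% were called lower there. The round spermatid list went both ways, with 3 markers higher and 4 lower at an unadjusted p below 0.05. The summed levels of both lists overlapped between the groups. Round spermatid markers summed to 1718 to 2134 CPM in the low and 1903 to 2672 CPM in the high boars, and elongating spermatid markers to 10020 to 15060 CPM and 12270 to 16720 CPM. None of the 7 tested Sertoli markers was called there. At an unadjusted p below 0.05, 2 of them were lower, as were 3141 of all 12979 tested genes. FEN1 correlated with the summed Sertoli list at 0.10 in Landrace and 0.78 in Duroc. The 4 peritubular myoid markers, led by MYH11 and ACTA2, summed to 39.1 to 86.7 CPM in the low boars of contrast (i). In the high boars they summed to 14.6 to 52.0 CPM. edgeR called 2 of the 3 tested myoid markers there, both lower in the high boars, with a median log2 fold change of -1.17 over the 3. FEN1 correlated with the summed myoid list at 0.55 in Landrace and 0.83 in Duroc. The 8 spermatogonial markers, led by DMRT1, summed to 85.5 to 134 CPM in the low and 92.4 to 126.5 CPM in the high boars, and FEN1 correlated with them at -0.21 in Landrace and -0.35 in Duroc. Elongating spermatid markers summed to 12110 to 15910 CPM in the low and 6828 to 13220 CPM in the high change boars of contrast (iii), and FEN1 correlated with them at 0.34 and -0.02 in the breeds. FEN1 correlated with the summed Leydig list at 0.26 in Landrace and 0.28 in Duroc, and with the endothelial list at 0.23 and 0.35. With the macrophage and lymphocyte list it correlated at -0.18 and 0.11. The part of these lists in the differences was not tested.

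Of 100 further genes listed for the fork, its regulators and base excision repair, 93 were matched. In contrast (i), 84 were tested, of which 4 were called higher and 10 lower, or 16.7%, beside the 20.7% of all genes. Their median log2 fold change was 0.18, opposite in sign to the -0.40 of the 9 genes. In contrast (iii), 0 of 82 were called, while 4 were higher and 7 lower at an unadjusted p below 0.05, or 13.4%, beside the 19.8% of all genes. RNASEH1, which removes RNA from RNA and DNA hybrids, was at 16.3 ± 1.22 CPM (SD, n = 3) in the high and 23.2 ± 2.71 CPM (SD, n = 4) in the low change boars, a log2 fold change of -0.53 (SE 0.17, adjusted p = 0.24 in edgeR). CHAF1A, a PCNA-bound histone chaperone subunit, had -0.48 (SE 0.16), UHRF1, which recruits DNMT1 to new DNA, -0.71 (SE 0.28), and PCLAF, a PCNA-binding factor, 0.36 (SE 0.15), with adjusted p from 0.24 to 0.245 in edgeR. E2F4, a repressive E2F factor, had -0.64 (SE 0.27) and RNASEH2A, the catalytic subunit of RNase H2, -0.36 (SE 0.15), both with an adjusted p of 0.245 in edgeR. In contrast (ii), 0 of 84 were called, and 0 had an unadjusted p below 0.05.

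Between breeds, 4 of 83 listed genes were called, or 4.82%, beside 2.77% of all genes. MCM10, which helps to start the MCM2 to MCM7 helicase, was lower in Duroc, where the mean was 16.8 ± 2.45 CPM (SD, n = 8), than in Landrace, where it was 26.1 ± 6.73 CPM (SD, n = 13), a log2 fold change of -0.62 (SE 0.14, adjusted p = 0.0147 in edgeR). DUT, which keeps uracil out of DNA, was lower as well, at 4.73 ± 1.76 CPM against 9.07 ± 2.33 CPM, with -0.92 (SE 0.21, adjusted p = 0.0132 in edgeR). The transcription factors E2F5 and E2F8 were higher in Duroc, with 0.82 (SE 0.21, adjusted p = 0.0289 in edgeR) and 0.42 (SE 0.11, adjusted p = 0.0368 in edgeR). Leaving out each of the 21 boars in turn, edgeR called MCM10 and DUT in 21 fits, E2F5 in 17 and E2F8 in 11. With only the day 0 boars and the hyperactivity label as a covariate, MCM10 was at -0.55 on the log2 scale (adjusted p = 0.109 in edgeR), and without the Landrace boars of contrast (i) DUT was at -0.87 (adjusted p = 0.183 in edgeR). E2F5 and E2F8 lost their calls in both of these fits, with adjusted p from 0.114 to 0.199 in edgeR. Their log2 fold changes there were 0.82 to 0.83 for E2F5 and 0.38 to 0.49 for E2F8. With no filter on low counts, E2F8 was not called either, at 0.40 (adjusted p = 0.0718 in edgeR). Among the cell markers, edgeR called between breeds only KIT of the spermatogonial list, at -1.40 (SE 0.23), and GATA4 of the Sertoli list, at 0.74 (SE 0.16). The part of the markers in the breed differences was not tested.

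Several of the genes lie beside another gene in the RefSeq annotation of Sscrofa11.1. TMEM258, a subunit of the enzyme that adds N-linked sugars to proteins, begins 107 bp from FEN1, on chromosome 2 from 9756970 to 9760615. It was at 29.4 to 80.2 CPM over all boars, and its log2 fold change was -0.71 (SE 0.20) in contrast (i), beside -1.67 for FEN1, and -0.24 (SE 0.24) in contrast (iii), beside -1.08. In contrast (ii) it was 0.32 (SE 0.24), beside 0.35 for FEN1. The spans of AP4M1 and MCM7 overlap by 347 bp on chromosome 3, and AP4M1, an adaptor complex subunit, had -0.51 (SE 0.16) in contrast (i) and -0.48 (SE 0.24) in contrast (iii), beside -0.40 and -0.39 for MCM7. The span of WDR19 overlaps that of RFC1 by 1331 bp on chromosome 8. PODXL2 lies 199 bp from MCM2, PRKDC 411 bp from MCM4 and COPS6 345 bp from MCM7. The share left ambiguous in the counting ran from 0.698% in L8 to 0.837% in L1. What this meant for the overlapping genes was not tested.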

How the data were processed

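The authors prepared stranded mRNA libraries, sequenced 100 bp single reads over 2 lanes, ran Trimmomatic 0.36 on them, mapped them with STAR to the pig genome Sscrofa 11.1, and used HTSeq in the reverse-stranded mode to count reads per Ensembl gene. The deposited values are raw counts per gene without normalization, 1 table per boar. Tests were run in edgeR 4.0.16 under R 4.3.3. Genes reaching 1 CPM in 50% or more of the libraries of a comparison were kept, TMM factors computed, and groups compared with the quasi-likelihood test, with Benjamini-Hochberg adjustment over all tested genes and a threshold of 0.05. The study states a likelihood ratio test, run here as an alternative, as was DESeq2 1.42.0. Each standard error is the log2 fold change divided by the root of its F statistic, and log2 CPM used a prior count of 2. The fits were tested on simulated data.

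Symbols came from an identifier table and coordinates from RefSeq, matched by symbol. Named besides the members are the 6 listed genes with the smallest p in contrast (iii) and those called between breeds (at most 3 a list), the most abundant markers, neighbours within 1000 bp, and the 5 genes closest to FEN1. Strand and gene lengths were not used here, so neighbours on either strand replaced the planned head-to-head partners, and no sequences or values per length are given. Members and lists were chosen with earlier results of these data known. Boars are separate animals, and depth limits the genes with few counts.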

Additional observations from a re-analysis of the deposited data

Results flagged for a closer look

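In groups of 4 or more boars, 45 sets of values of the 9 genes were searched for a boar far from its group, and 2 were found, where chance gives about 2.25 at 1 in 20. MCM2 was at 4.83 CPM in L7, a high boar of contrast (i), whereas the other 3 high boars lay between 2.54 and 2.72 CPM. MCM3 was at 10.2 CPM in D5, whereas the other Duroc boars lay between 4.48 and 6.96 CPM.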

How the results depend on the processing

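No paired analysis was possible because the numbers in the labels name single boars and mark no shared animal, litter or day. Leaving out each boar in turn, the members called in contrast (i) ranged from 0 to 4 and all genes called from 1 to 3764, with 0 members and 1 gene without L3 or without L6. With a minimum of 5 CPM, 1 member, FEN1, and 1661 genes were called there. FEN1 was called in all other alternative fits of contrast (i). These fits reuse the boars that chose FEN1, so nothing is read from its calls. All genes called ranged from 0 to 2 over the boars left out in contrasts (ii) and (iii). In contrast (iii) they numbered 64 by the likelihood ratio test, 116 by DESeq2 and 1 with no filter. Between breeds they numbered 537 by DESeq2, 554 with no filter and 225 with at least 5 CPM, beside 355. No member was called in contrast (ii), contrast (iii) or between breeds under any alternative run. The sign of values near 0 turned. With upper-quartile factors, LIG1 and MCM3 in contrast (iii) were -0.022 and -0.0072 and MCM7 between breeds 0.0073. With at least 5 CPM, MCM3 in contrast (iii) was -0.0037 and MCM7 between breeds 1e-04. Without L2 and L7, MCM3 in contrast (iii) was -0.11. Between breeds, MCM5 was -0.0032 by DESeq2, -0.0044 with relative log expression factors and -0.0095 with no filter, MCM4 was -0.063 without the boars of contrast (i), and MCM7 was 0.074 with day 0 boars only. Over the boars left out, contrast (ii) gave -0.091 to 0.30 for LIG1, -0.40 to 0.048 for MCM2, -0.13 to 0.19 for MCM3, -0.090 to 0.041 for MCM4, -0.19 to 0.30 for MCM5 and -0.068 to 0.26 for MCM6. Contrast (iii) gave -0.14 to 0.21 for LIG1, -0.076 to 0.042 for RFC1 and -0.12 to 0.15 for MCM3, and the breeds gave -0.14 to 0.13 for MCM5 and -0.065 to 0.053 for MCM7. The causes were not tested. Leaving out L13 and D3, chosen after seeing the data, called no member between breeds. Levels per gene length were not run. MCM5, at 27 to 218 counts per library, had the widest standard errors of the members in contrasts (i) and (ii).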
